A study of Rattus norvegicus with 3 samples.

Results

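Kidney transcripts of rats on the high dose of a mussel protein hydrolysate were compared with those of rats on the low dose. The comparison uses 2 of the 3 arrays of the series, chosen by their sample labels, with 1 array per dose. The animals were male spontaneously hypertensive rats (SHR), an inbred strain of Wistar background in which blood pressure rises with age. All groups shared the strain, an age of 8 to 10 weeks, a body weight of 280 to 330 g and a daily oral volume of about 3 mL for 28 days. The low dose group received the hydrolysate of blue mussel protein (HBMP, a mixture of peptides cut from the protein) at 10 mg/kg per day, and the high dose group at 20 mg/kg per day. The control group was given water in the same way, and its array enters no call here, though its level is given beside the others. Each group had 10 rats, and RNA of 4 of them was mixed in equal amounts for the array, so an array reports 1 pool and nothing of the spread between rats. A group is therefore 1 sample, no test between the doses was possible, and every difference below describes these arrays.

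The kidney filters plasma in glomeruli and recovers water, salt, sugar and peptides along the tubule, with the proximal tubule taking back most of the filtrate and the thick ascending limb building the salt gradient of the medulla. Injured tubule cells are known to switch on secreted and surface proteins such as lipocalin 2, kidney injury molecule 1, clusterin and osteopontin, which are used as injury markers. Matrix proteins from interstitial fibroblasts, complement components and macrophage genes commonly accompany such injury, and the renin-angiotensin system of the kidney is a major control of blood pressure.

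Each array carries 30367 probes, and those above background numbered 15353 for water, 15806 for the low dose and 16617 for the high dose. Signals are spot intensities scaled so that the 75th percentile is equal on all arrays. On the log2 scale, differences are given as high dose minus low dose, so a negative value is a lower signal at the high dose. Probes printed on several spots differed between the doses with a median SD over their spots of 0.0840 (log2), from 0.221 below an intensity of 32 to 0.0629 above 1024. This is spread within an array pair and contains no difference between animals. The 6 spike-in probes above background, whose RNA was added to each sample, differed by -0.09 to 0.12. All 42 listed proximal tubule markers stood above background on both dose arrays, as a check of the kidney label. The tubule protein gene Umod read 37140 on the water array, 28170 at the low dose and 29570 at the high dose. In bulk RNA, fewer cells of a type and less RNA per cell cannot be told apart.

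Of 18012 named genes on the array, 10192 stood above background on both dose arrays. Among these, 153 (1.5%) were lower at the high dose by 2-fold or more and 47 (0.461%) at least 2-fold higher, together 200 (1.96%). The lower genes made up 76.5% of those past 2-fold, although the median difference over all measured genes was 0.04 with 4605 genes below 0 and 5587 above. With spots flagged as not found left out before scaling, the median over all genes moved to 0.14 and the lower share to 56.8%, with 125 lower and 95 higher. With the same spots left out and the scaling unchanged, the median was 0.04 and the lower share 76.2%, with 170 lower and 53 higher. Both of these settings also kept spots whose mean and median differ over 1.5-fold, which the main setting drops. With that change alone, 172 were lower and 52 higher. Past 4-fold there were 14 lower genes and 3 higher ones. The SD of the difference over all measured genes was 0.37. At the edge of the 2-fold line, Ccl6 at -1.0023, Ccdc80 at -1.0021 and Anln at -1.0003 were just inside on the lower side, and Arl4c at -0.9994, Lypd1 at -0.9959 and Adamts1 at -0.9910 just outside. On the higher side Bmp4 at 1.0014, Dhrs7l1 at 1.0093 and Pgp at 1.0133 were just inside, and Ppp5c at 0.9965, Cftr at 0.9919 and Prim2 at 0.9917 just outside.

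**Figure D1:**
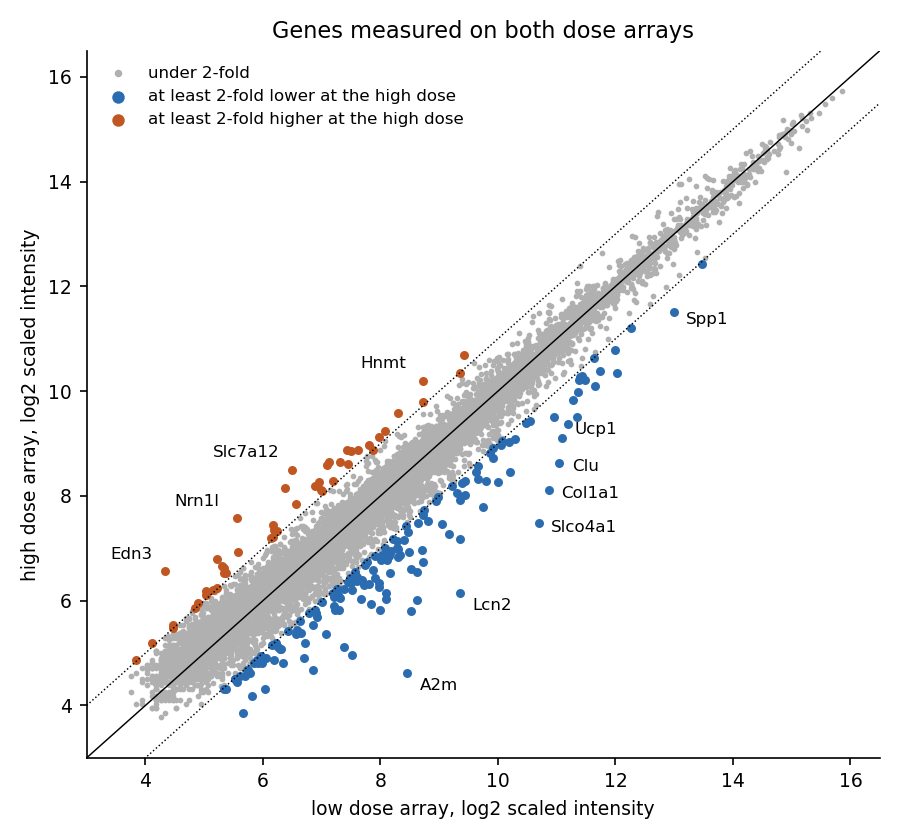
Log2 scaled intensity on the low dose array (horizontal) against the high dose array (vertical) for the 10192 genes above background on both, 1 point per gene; the solid line marks equality and the dotted lines 2-fold. The 153 blue genes below the lower dotted line outnumber the 47 orange genes above the upper one, and A2m, Slco4a1 and Lcn2 lie farthest below.

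Several genes known to be induced in injured tubules were lower at the high dose or not above background there. Of 24 measured members of that list, 10 were at least 2-fold lower and none higher, with a median of -0.88 against 0.04 over all measured genes. Under normexp, another background model that here adds 50 to every signal, 6 were past 2-fold. The added 50 by itself shrinks folds, most of all at weak signals. With flagged spots left out, 6 were past 2-fold after rescaling and 10 at the unchanged scaling. A further 3 members, Havcr1, Fgb and Il24, stood above background at the low dose only. Havcr1 encodes kidney injury molecule 1, a receptor on the surface of damaged proximal tubule cells. Its intensity was 13.8 on water and 10.9 at the high dose, neither above background, and 222 at the low dose. Where a probe is above background on 1 dose only, the fold is a bound that holds for the main background setting only. It is taken against whichever is larger: what the dim probe read or the weakest signal above background on its array. For Havcr1 the low dose was at least 20.4-fold higher. Fgb, the fibrinogen beta chain, read 26.4 on water, 179 at the low dose and 16.4 at the high dose, at least 10.9-fold higher at the low dose, while its other probe was above background on no array. Il24, a cytokine of the interleukin 10 family, read 6.88, 95.9 and 10.9 in the same order, at least 8.79-fold higher at the low dose. For these genes the water and high dose levels lay together at the bottom and the low dose level stood alone. Under normexp they differed by -2.16 (Havcr1), -1.79 (Fgb) and -1.27 (Il24), which are smaller folds than the bounds above.

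Other injury markers were measured on both doses. Lcn2 (lipocalin 2, an iron-siderophore carrier) read 50.4 on water, 652 at the low dose and 71.0 at the high dose, a difference of -3.20. Clu (clusterin, a secreted chaperone) read 287, 2113 and 397. Its difference of -2.41 came from 10 spots with an SD of 0.0513, and the spots ran from -2.51 to -2.33. Spp1 (osteopontin) read 1898, 8165 and 2923, with a difference of -1.48 and an SD over 10 spots of 0.0843. Gpnmb, a glycoprotein of lysosomes and of tubule and macrophage cells under stress, read 32.1, 394 and 64.6, a difference of -2.61. In all of these the low dose array was highest, and the high dose array stayed above the water array. Smaller differences were those of Cp (ceruloplasmin, -1.12), Gdf15 (a stress cytokine, -1.06), Fga (fibrinogen alpha, -1.03), Cd44 (a hyaluronan receptor, -1.03) and Lgals3 (galectin 3, -1.01). A further Cd44 probe read 0.45, so the probes of that gene disagree. Hmox1, heme oxygenase, fell just short at -0.98. The exceptions in the list were Krt8 at 0.21, Vnn1 at 0.28 and Tff3 at 0.89. Tff3, a trefoil peptide of mucosal repair, read 17620 on water, 8633 at the low dose and 15960 at the high dose, so here the low dose array was the lowest.

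**Figure D2:**
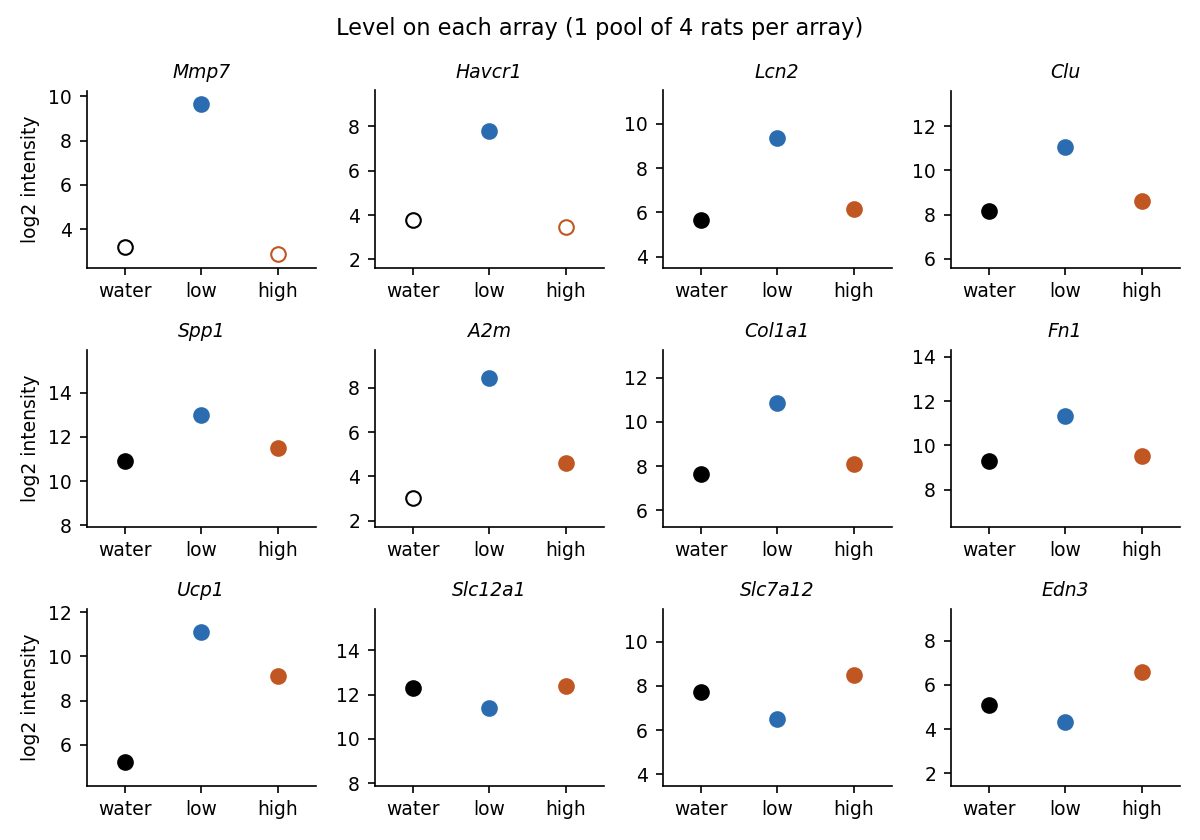
Log2 intensity of 12 genes on the water, low dose and high dose arrays, 1 pool of 4 rats each; filled circles are above background, open circles are not, and every panel spans 8 log2 units. Mmp7, Havcr1, Lcn2, Clu, Spp1, A2m, Col1a1, Fn1 and Ucp1 peak at the low dose, while Slc12a1, Slc7a12 and Edn3 are lowest there.

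Mmp7 (matrilysin, a protease secreted by tubule epithelium) had the largest bound of all. Its intensity was 9.17 on the water array, 808 at the low dose and 7.28 at the high dose, so the low dose was at least 98.6-fold higher, read by 1 spot per array. Under normexp its difference was -3.89, a smaller fold than that bound. The genes that differ most can be set against the letters of their promoters. The 250 bases before the start site, from RefSeq's GRCr8 annotation, are shown for both ends of the comparison and for an injury receptor: Mmp7 (chr8:13132793-13133042, plus strand), Havcr1 (chr10:31629528-31629777, plus strand) and Slc7a12 (chr2:88868104-88868353, minus strand), an amino acid carrier among the 3 genes with the highest differences. They are written 5′ to 3′ on the gene's strand, with capitals for matches on either strand to the TATA box core (TATAAA), the AP-1 site (TGACTCA), a STAT-type palindrome (TTCNNNGAA) or the CCAAT box.
Mmp7: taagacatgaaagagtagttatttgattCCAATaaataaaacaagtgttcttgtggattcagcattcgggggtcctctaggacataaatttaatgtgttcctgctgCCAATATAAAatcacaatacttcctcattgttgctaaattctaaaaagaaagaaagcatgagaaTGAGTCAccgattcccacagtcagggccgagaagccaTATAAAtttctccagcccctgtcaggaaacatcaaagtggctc
Havcr1: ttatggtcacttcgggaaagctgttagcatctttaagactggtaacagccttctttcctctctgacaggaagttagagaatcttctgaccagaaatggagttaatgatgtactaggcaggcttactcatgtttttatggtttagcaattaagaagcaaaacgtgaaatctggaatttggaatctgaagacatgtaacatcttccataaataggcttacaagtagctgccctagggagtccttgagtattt
Slc7a12: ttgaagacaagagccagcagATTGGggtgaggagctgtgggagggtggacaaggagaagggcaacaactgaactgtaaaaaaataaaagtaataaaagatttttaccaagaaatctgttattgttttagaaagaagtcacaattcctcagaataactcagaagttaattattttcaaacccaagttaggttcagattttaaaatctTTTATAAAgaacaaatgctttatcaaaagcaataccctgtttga

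In the Mmp7 window TATAAA begins at positions -140 and -43 from the start site, the reverse complement of TGACTCA at -80, and CCAAT at -222 and -144, the last of which overlaps the TATAAA at -140. Slc7a12 holds TATAAA at -42, an overlapping match on the other strand at -44, and CCAAT on the other strand at -230. The Havcr1 window holds none of these motifs, nor do those of Lcn2 and Timp1, which were searched as well and are not printed. Promoters were found for 97 of the 153 lower genes, 40 of the 47 higher genes and 8360 of all measured genes. TATAAA, the core of the TATA box, was in 20.6% of the lower genes' windows, 10% of the higher genes' and 7.36% of all. TGACTCA, the AP-1 site, was in 9.28%, 7.5% and 3.16%. CCAAT was in 33%, 37.5% and 35.7%, and the STAT-type palindrome in 7.22%, 5% and 5.96%. These are counts of letters in a window. Whether any factor binds there was not measured.

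Many collagen genes were lower at the high dose. Of 19 measured collagens, 9 were at least 2-fold lower and none higher, the median was -0.97, and 18 of the 19 lay below 0. Col1a1 and Col1a2, the chains of type I collagen, were among them: Col1a1 read 203 on water, 1873 at the low dose and 278 at the high dose, a difference of -2.76, and Col1a2 read 1560, 4180 and 1308, a difference of -1.68. A further Col1a1 probe gave -1.61, so the direction is shared and the size is not. Col3a1 (type III collagen) read 534, 2355 and 667, a difference of -1.82. Col15a1, a collagen of basement membrane zones, read 134, 657 and 146, a difference of -2.17. In these 4 genes the high dose array lay close to the water array and the low dose array far above both. The basement membrane chains were uneven. Col4a1 differed by -1.45 and Col4a2 by -0.65. Col4a3 at -0.35 and Col4a4 at 0.12, chains of the glomerular basement membrane, differed less, Col4a3 at weak signals of 49.9 and 39.1 at the low and high dose. Col8a1 was above background at the low dose only, at least 3.41-fold higher there.

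Other matrix genes followed the collagens less evenly. Of 23 measured glycoproteins and proteoglycans, 5 were at least 2-fold lower and none higher, with a median of -0.55. Spp1, which the injury list also holds, is among the 5. Fn1 (fibronectin) read 638, 2599 and 731 on water, low dose and high dose, a difference of -1.83. Loxl2, an enzyme that crosslinks collagen, read 69.9, 273 and 65.5, a difference of -2.06, and Eln (elastin) 61.9, 286 and 120, a difference of -1.25. Bgn (biglycan) differed by -1.06, with a further probe at -0.26. The small proteoglycan Dcn (decorin) differed by -0.55, and Aspn, at 0.95, was the highest of the list at weak signals of 24.0 and 46.4. Vcan (versican) and Fbln1 (fibulin 1) were above background at the low dose only, at least 3.80-fold and 2.74-fold higher there. Lum, Tnc, Postn and Lox, other matrix genes of scar tissue, were above background on neither dose array.

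Among enzymes that cut matrix and their inhibitors, both kinds had members lower at the high dose. Of 19 measured genes, 7 were at least 2-fold lower and none higher, with a median of -0.67. A2m, the broad protease inhibitor alpha-2-macroglobulin, was the lowest of all measured genes, with intensities of 8.02 on water, not above background, 350 at the low dose and 24.6 at the high dose, a difference of -3.83. Timp1, an inhibitor of metalloproteinases that the injury list also holds, read 133, 451 and 183, a difference of -1.30 with an SD over 10 spots of 0.0546. Serpine2 (protease nexin 1) differed by -1.91. Of the proteases, Mmp2 (gelatinase A) read 113, 573 and 155, a difference of -1.89, Mmp14, which activates it, differed by -1.25 and Ctsk (cathepsin K) by -1.24. Pcolce, which enhances the cutting of procollagen, differed by -1.21. Plau (urokinase) at 0.66 and Timp3 at 0.44 lay above 0. Adamts1 at -0.99 and Timp2 at -0.80 stayed inside 2-fold.

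Acute-phase, complement and coagulation genes held the largest number of lower members, though the share was larger in the collagens (9 of 19). Of 25 measured genes, 11 were at least 2-fold lower and 1 higher, with a median of -0.61, against 1.5% lower over all measured genes. Cp and Fga, which the injury list also holds, are among the 11. Under normexp 6 were lower and none higher. With flagged spots left out, 7 were lower after rescaling and 11 at the unchanged scaling. Besides A2m, the acute-phase serpin Serpina3n read 17.2, 167 and 34.6 on water, low and high dose, a difference of -2.27, the water level not being above background. C3, the component on which all complement pathways meet, read 123, 361 and 122, a difference of -1.56. C4a, of the classical pathway, read 1544, 3219 and 1099, a difference of -1.55. C2, which pairs with C4, differed by -1.30 and by -1.43 on a further probe, and Cfb (factor B of the alternative pathway) by -1.06. Chains of C1q, the recognition unit made mainly by macrophages, differed by -1.27 (C1qb), -1.08 (C1qc) and -1.01 (C1qa). For C3, C4a and the C1q chains the high dose array was within 2-fold of the water array. C5 at -0.21 and Cfi at -0.29 differed little, and C6 differed by -0.08. F5, coagulation factor V, was the exception with 37.8 on water, 37.4 at the low dose and 111 at the high dose, a difference of 1.57 that dropped under 2-fold (0.84) under normexp.

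**Figure D3:**
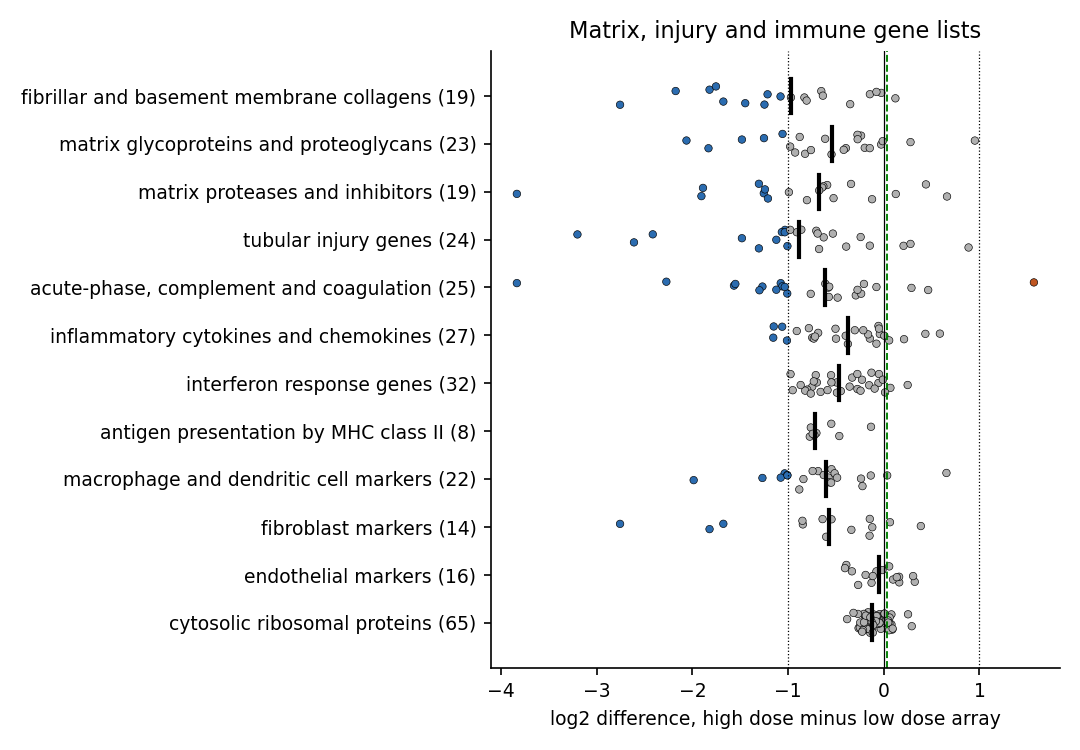
Log2 difference, high minus low dose, of every measured member of 12 lists (number of genes in brackets); black bars are list medians, the green dashed line the median of all measured genes, dotted lines 2-fold, blue and orange members past 2-fold. The collagens, injury genes and class II genes have medians of -0.97, -0.88 and -0.71, while endothelial markers and ribosomal proteins sit at -0.04 and -0.12.

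Of 22 measured macrophage and dendritic cell markers, 6 were lower at the high dose by 2-fold or more and none higher, with a median of -0.60. The 6 include the C1q chains of the complement list and Lgals3 of the injury list, so they are not separate counts. With each gene counted once, the matrix, injury, acute-phase, cytokine and macrophage lists had 43 of 150 measured genes lower and 1 higher. Over all measured genes 1.5% were lower and 0.461% higher. The lists were chosen with earlier results of these data known, so these counts are description only. Under normexp 2 of the 22 macrophage and dendritic cell markers were past 2-fold. With flagged spots left out, 2 of the 22 were after rescaling and 6 at the unchanged scaling. Their summed intensity was 25210 on water, 39870 at the low dose and 25000 at the high dose, so the high dose sum lay close to the water sum and the low dose sum above both. Clec10a, a lectin of macrophages and dendritic cells, read 100, 423 and 107, a difference of -1.99 with an SD over 10 spots of 0.0751. Cd68, a lysosomal protein of macrophages, read 314, 599 and 292, a difference of -1.04. Siglec1 and Cd163, receptors of tissue macrophages, were above background at the low dose only, at least 3.67-fold and 2.64-fold higher there. Other general markers differed less. Aif1 differed by -0.57, Ptprc, the pan-leukocyte antigen, by -0.49, Adgre1 by -0.24 and Itgam by -0.22, while Csf1r, the receptor of the growth factor of macrophages, stood at 0.66. Trem2, a receptor of lipid-handling macrophages that was in no list, read 66.5, 367 and 97.4, a difference of -1.92. Mrc1, Msr1, Itgax and Cd86 were above background on neither dose.

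No measured gene of MHC class II presentation or of the interferon response was past 2-fold, and most had differences below 0. All 8 measured genes of MHC class II presentation lay below 0 with a median of -0.71. Cd74, the class II invariant chain, read 6681, 8054 and 5509 on water, low and high dose, a difference of -0.55, and RT1-Da, a class II alpha chain, 1381, 2226 and 1313, a difference of -0.76. Ciita, the master activator of class II genes, differed by -0.72 at signals of 45.1 and 27.3. Of 32 measured interferon response genes, 29 lay below 0, with a median of -0.47. Mx1, an antiviral GTPase, differed by -0.97 and Irf7, the transcription factor of the response, by -0.95, whereas Ifitm2 at -0.05 differed little. Among 27 cytokines and chemokines, 4 were at least 2-fold lower, also with flagged spots left out at the unchanged scaling. None was under normexp, and 2 were with flagged spots left out before scaling. Of the 4, Ccl2, which draws monocytes, read 38.2, 215 and 103, a difference of -1.06, Cxcl10 differed by -1.15 and Il1rn by -1.01. Cxcl1, Cxcl2 and Ccl20, attractants of neutrophils and lymphocytes, were above background at the low dose only, at least 2.27-fold, 3.45-fold and 3.30-fold higher there. Tnf differed by -0.69, and Il6 and Il10 were above background on neither dose.

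Markers of lymphocytes and granulocytes were mostly weak. Of 32 lymphocyte markers on the array, 11 were measured, with a median of -0.31 and a summed intensity of 1513 on water, 1942 at the low dose and 1867 at the high dose. Cd7 differed by -1.17, Cd3g by -0.53 and Cd3d by 0.01, and Cd4, Cd8a and Ms4a1 were above background on neither dose. Of 17 neutrophil and mast cell markers, 5 were measured, and S100a8 (-0.03) and S100a9 (-0.01) lay near 0. Fibroblast markers had 3 of 14 measured genes at least 2-fold lower, all of them collagens that the collagen list also holds. The receptors Pdgfra and Pdgfrb differed by -0.85 each, Dpt by -0.12 and Tcf21 by -0.15. The fibroblast sum was 8589 on water, 16040 at the low dose and 8448 at the high dose. That sum includes the collagens, which held much of its low dose excess. In the same order Col1a2 read 1560, 4180 and 1308, Col3a1 534, 2355 and 667, and Col1a1 203, 1873 and 278. Endothelial markers had a median of -0.04 with none of 16 past 2-fold, and smooth muscle and pericyte markers one of -0.01, with Actg2 at 1.27 the exception among 14. The part of cell numbers in the matrix and immune differences was not tested.

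Among the lowest genes were a carrier, an activin subunit and an adrenergic receptor. Slco4a1, a carrier of organic anions and thyroid hormone, was next to A2m, with 115 on water, 1659 at the low dose and 178 at the high dose, a difference of -3.22. Inhba, which encodes the activin A subunit, read 28.7, 116 and 25.5, a difference of -2.19. In both genes the low dose array stood far above the other arrays. Adra1d, an alpha-1 adrenergic receptor, read 28.0, 183 and 31.4, a difference of -2.54 with an SD over 10 spots of 0.119. Adra1a at 0.25 and Adra1b at -0.41, the other receptors of that class, stayed inside 2-fold. In the list of TGF-beta, BMP and CCN signalling, 3 of 27 measured genes were at least 2-fold lower and 1 higher, with a median of -0.08, against 1 lower and none higher under normexp. Ltbp2, a binding protein of latent TGF-beta, differed by -1.70 and Ccn2 (connective tissue growth factor) by -1.09. Ccn2 read 1191 on water, 1065 at the low dose and 501 at the high dose, so here the high dose array was the one apart, with an SD over 10 spots of 0.0415. Bmp4, at 234, 234 and 469, was also apart at the high dose, in the other direction. Bcat1, an aminotransferase of branched-chain amino acids, differed by -2.17, C1qtnf6, a secreted relative of adiponectin, by -2.07 and Serinc2 by -1.18.

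Lists of hormone and growth responses were mixed. Of 23 measured glucocorticoid-responsive genes, 6 were at least 2-fold lower and none higher, with a median of -0.30. Fkbp5, a chaperone of the glucocorticoid receptor, read 651 on water, 789 at the low dose and 353 at the high dose, a difference of -1.16. Bcl6, a repressor, read 1313, 932 and 452, a difference of -1.04, and Map3k6 170, 210 and 79.2, a difference of -1.41. In these 3 genes the high dose array lay below both others. Cebpd differed by -1.20, Sgk1 by -0.88 and Tsc22d3 by -0.61, whereas Pck1 differed by -0.02. Angptl4, an inhibitor of lipoprotein lipase, read 130, 530 and 177, a difference of -1.58, and Lcn2, which the injury list also holds, is the sixth. Of 23 measured cell cycle genes, 4 were at least 2-fold lower, with a median of -0.15, against 1 under normexp. With flagged spots left out, 2 were lower after rescaling and 4 at the unchanged scaling. Cdk1, the mitotic kinase, differed by -1.02, Plk1 by -1.10, Rrm2 by -1.13 and the cell cycle inhibitor Cdkn1c by -1.37, while Pcna at 0.16 and Ccnd1 at 0.35 were above 0. Top2a and Ccne1 were above background at the low dose only, at least 2.32-fold and 2.11-fold higher there. Myc, a growth regulator, read 115, 184 and 73.5, a difference of -1.32, while Egr1 stood at 0.96 and Fos was above background at the high dose only, at least 2.53-fold higher there.

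**Figure D4:**
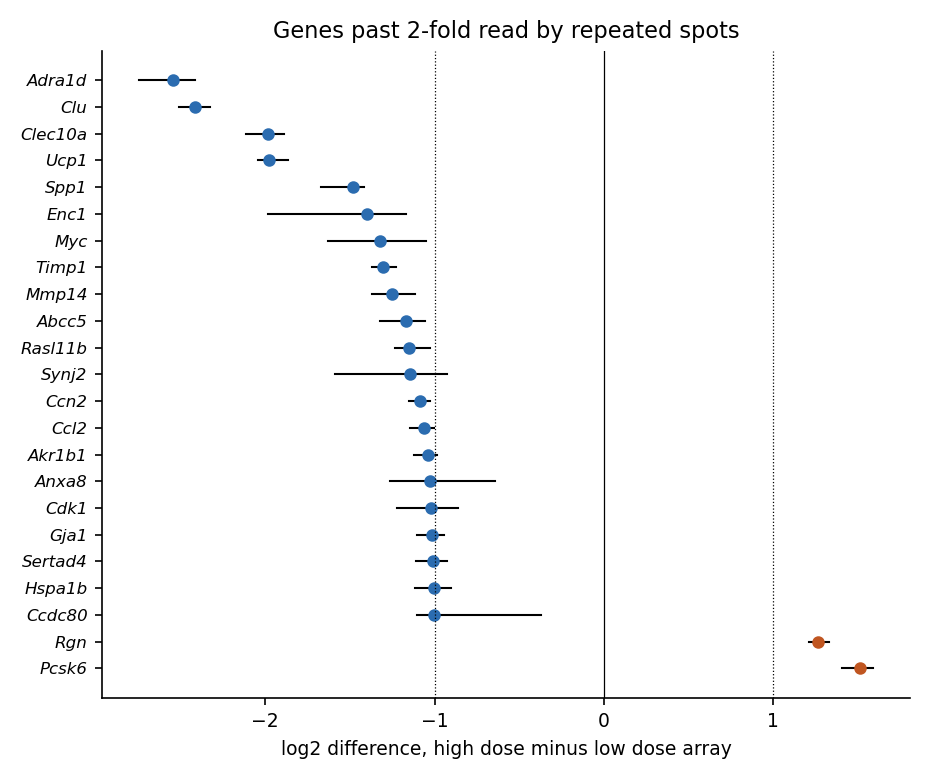
Log2 difference, high minus low dose, of the 23 genes past 2-fold whose probe is printed on several spots (10, or 9 for Sertad4); circles are the gene's value, lines run from the lowest to the highest spot, dotted lines mark 2-fold. No line crosses 0; the widest belong to Enc1, Ccdc80, Synj2 and Anxa8.

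Repeated spots were available for 21 of the 153 lower genes and 2 of the 47 higher genes. In all 23 every spot had the direction of the mean, with SDs from 0.0415 to 0.243 among the lower genes and from 0.0426 to 0.0595 among the higher ones. The remaining 132 lower and 45 higher genes rest on 1 spot per array. A further probe of the same gene was above background for 23 lower genes, of which 19 had the same direction on it and 9 were past 2-fold on it. For the higher genes the counts were 5, 4 and 2. Genes whose probes disagree in direction include Cd44, Upk1b and Abcc5 among the lower and Rimoc1 among the higher.

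Markers of tissues that lie next to the kidney also differed between the doses. Of 11 measured brown fat markers, 3 were lower at the high dose by 2-fold or more, while 6 lay above 0 and the median was 0.01. Ucp1, the uncoupling protein of brown fat, read 37.6 on water, 2178 at the low dose and 553 at the high dose, a difference of -1.98 with an SD over 10 spots of 0.0633. Cox8b, a subunit of cytochrome oxidase in brown fat and muscle, read 83.7, 1185 and 353, a difference of -1.75, and Cidea, a lipid droplet protein, 488, 3409 and 1344, a difference of -1.34. General fat cell markers were less uniform, with 1 of 20 measured genes past 2-fold, again Cidea, and a median of -0.21. Fabp4, the fatty acid carrier of fat cells, read 63.0, 1020 and 574, a difference of -0.83, but Adipoq, the hormone adiponectin, differed by -0.20 and Retn, resistin, by 0.18. Their summed intensity was 18160 on water, 26950 at the low dose and 23520 at the high dose, so both dose arrays lay above water. Fasn, the fatty acid synthase, read 369, 2755 and 1256, a difference of -1.13. Lep, Plin1, Dio2 and Zic1, other fat cell genes, were above background on neither dose.

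Urothelial markers, from the lining of the renal pelvis, had 2 of 17 measured genes at least 2-fold lower, 1 of them under normexp, and a median of -0.55. Krt15, a keratin, read 19.5 on water, not above background, 224 at the low dose and 80.1 at the high dose, a difference of -1.48. Upk1b, a uroplakin, read 10.3, not above background, 397 and 179, a difference of -1.15, with a further probe at 0.23. Upk3a (-0.70), Upk1a (-0.55) and Upk2 (-0.41) differed less. The urothelial sum was 15960 on water, 26740 at the low dose and 19430 at the high dose, and Krt5 and Upk3b were above background on neither. That sum also holds Krt7 and Gata3 of the principal cell list and Krt19 and S100a6 of the injury list. It is therefore no measure of urothelium alone, and the brightest uroplakin, Upk3a, read 26.4, 514 and 318 in the same order. Msln (mesothelin, of the serous covering) read 24.1, not above background, 272 and 71.0, a difference of -1.94. Of 12 measured neural and neuroendocrine markers, 8 lay above 0 and the median was 0.13. Uchl1, an enzyme of neurons, was the 1 past 2-fold, with 56.2, 810 and 383 and a difference of -1.08. The part of sampled neighbouring tissue in the matrix and injury differences was not tested.

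The 47 genes higher at the high dose were smaller in size and held no list as a block. Edn3, encoding the vasoconstrictor peptide endothelin 3, read 34.4 on water, 20.1 at the low dose and 94.6 at the high dose, a difference of 2.23 that came to 0.99 under normexp. Nrn1l, a relative of neuritin, read 113, 47.0 and 190, a difference of 2.02. Slc7a12, whose promoter is printed above, read 211, 90.2 and 361, a difference of 2.002. In these 3 genes the low dose array was the lowest and the high dose array the highest. Smim5, a small membrane protein, differed by 1.76, with 1.16 on a further probe, and Abhd14b, a hydrolase, by 1.52. Pcsk6, a proprotein convertase, read 256, 136 and 388, a difference of 1.51 over 10 spots with an SD of 0.0595, and 0.58 on a further probe. Hnmt, which inactivates histamine, read 1032, 422 and 1174, a difference of 1.48. Ppp1r1b (DARPP-32, an inhibitor of protein phosphatase 1) read 305, 174 and 470, a difference of 1.44. Cyp24a1, the enzyme that degrades vitamin D, read 509, 181 and 464, a difference of 1.36, and Gc, the vitamin D carrier of plasma, 783, 251 and 560, a difference of 1.16. Rgn (regucalcin, a calcium-binding protein) read 1446, 690 and 1657, a difference of 1.26. For Hnmt, Cyp24a1, Gc and Rgn the water and high dose arrays were within 2-fold of each other and the low dose array was below both. Cyp27b1, which makes active vitamin D, at 0.08, and Vdr, its receptor, at 0.23, were near the middle of all genes.

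Carriers of organic anions of one family stood together at the high dose. Slco1a6 read 238 on water, 118 at the low dose and 291 at the high dose, a difference of 1.30, Slco1a1 544, 271 and 606, a difference of 1.16, and Slco1a5 134, 75.8 and 162, a difference of 1.10. These are near relatives, so probes for them may share signal. They are the 3 higher genes among 27 measured organic ion carriers, of which Slco4a1 alone was lower and the median was 0.14. The main organic anion transporters of the proximal tubule, Slc22a6 at -0.09 and Slc22a8 at -0.24, differed little, while Slc22a7 at 0.75 and Slc22a24 at 0.77 came near 2-fold. Of 31 measured genes of amino acid and peptide transport, 2 were higher and none lower, with a median of 0.24: Slc7a12, above, and Slc6a12, the betaine carrier, at 1.08. Slc7a13 read 21730, 8843 and 15980, a difference of 0.85. Slc15a1, a peptide carrier of the brush border, differed by -0.35 and its relative Slc15a2 by 0.65. Cyp2c11, a steroid hydroxylase typical of males, read 301, 158 and 400, a difference of 1.34, the only 1 of 39 measured drug-metabolising genes past 2-fold.

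Along the nephron, no marker of the thick ascending limb was past 2-fold in the main setting. Under normexp 1 was higher, Slc12a1 at 1.0008. With flagged spots left out, 3 were higher after rescaling and none at the unchanged scaling. Of 21 measured markers, 17 had differences above 0, and the median was 0.54 against 0.04 over all measured genes. Slc12a1, the sodium-potassium-chloride carrier that loop diuretics block, read 5090 on water, 2692 at the low dose and 5350 at the high dose, a difference of 0.99. Kcnj1, the potassium channel that works with it, read 2488, 1549 and 2757, a difference of 0.83. Kcnt1 differed by 0.96, Ptger3, a prostaglandin receptor, by 0.94, and Egf, made in this segment, by 0.64 with an SD over 10 spots of 0.0871. In Slc12a1, Kcnj1 and Egf the water and high dose levels lay close together and the low dose level was lower. Umod at 0.07 and Casr at 0.13 did not follow. The summed intensity of the list was 95000 on water, 70840 at the low dose and 84380 at the high dose. Over the alternative settings the median of the list ran from 0.43 to 0.64.

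**Figure D5:**
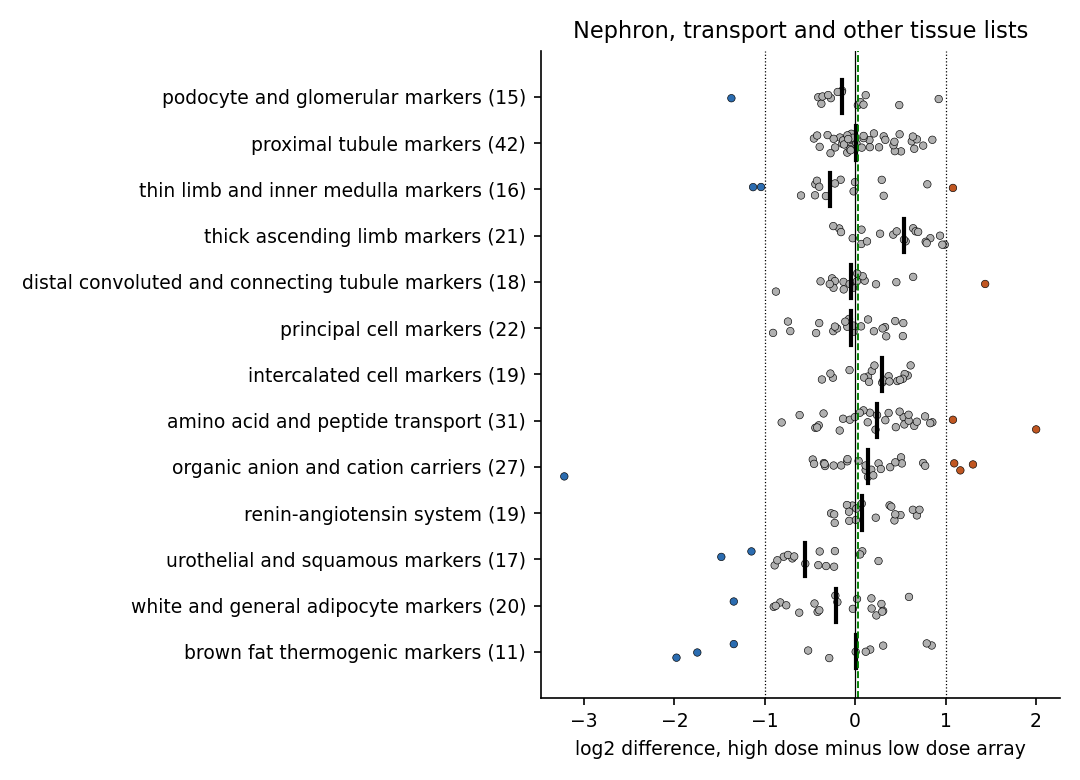
Log2 difference, high minus low dose, of every measured member of 13 lists of nephron segments, transport and other tissues (number of genes in brackets); black bars are list medians, the green dashed line the median of all measured genes, dotted lines 2-fold. The thick ascending limb has the highest median, 0.54, and the urothelial list the lowest, -0.55, while the proximal tubule list centres on 0.01.

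The other segments stayed nearer to the middle of all genes. None of the 42 proximal tubule markers was past 2-fold. Their median was 0.01, and they ran from -0.46 (Slc2a2) to 0.85 (Slc7a13). Intercalated cells had a median of 0.30 with none of 19 past 2-fold. Slc4a1, the anion exchanger of their basolateral side, read 991, 763 and 1141 and differed by 0.58, and Foxi1, their master regulator, by -0.25. Principal cells had a median of -0.04 with none of 22 past 2-fold. Distal convoluted and connecting tubule had one of -0.04, with Ppp1r1b at 1.44 the 1 of 18 past 2-fold. Podocyte and glomerular markers had one of -0.15, with Cdkn1c at -1.37 the 1 of 15 past 2-fold. Aqp2, the water channel of principal cells, read 12250 on water, 30770 at the low dose and 18710 at the high dose, a difference of -0.72. The podocyte gene Nphs1 differed by 0.03. Of 16 thin limb and inner medulla markers 2 were at least 2-fold lower, S100a4 (-1.13) and Akr1b1 (aldose reductase, -1.04), and 1 higher, Slc6a12, with a median of -0.27. Akr1b1 read 52.6, 491 and 239 with an SD over 10 spots of 0.0517. The depth at which each kidney was sampled is not given in the labels.

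The renin-angiotensin system, of interest in a hypertensive strain, showed no member past 2-fold among 19 measured, with a median of 0.07. Agt (angiotensinogen) read 1022 on water, 579 at the low dose and 754 at the high dose, a difference of 0.38. Ace, the converting enzyme, read 124, 96.9 and 102, a difference of 0.07. The receptors Agtr1a and Agtr1b differed by -0.07 and -0.09, and Agtr2 and Mas1 were above background on neither dose. The peptidases Prep (0.71), Anpep (0.68) and Mme (0.64) were the highest of the list. Among 9 measured kallikrein and kinin genes none was past 2-fold, and Klk1 differed by -0.13. Apart from Edn3, the list of endothelin, nitric oxide and natriuretic peptide genes had none of 19 past 2-fold, with Npr1 at -0.36 and Nos3 at -0.19.

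Housekeeping groups were also read. The 65 cytosolic ribosomal protein genes ran from -0.38 to 0.29 with a median of -0.12, the 48 respiratory chain subunits from -0.48 to 0.68 with a median of 0.13, and the 33 proteasome subunits had a median of 0.11. None of these genes was past 2-fold. In glutathione metabolism Gclm, the modifier subunit of glutamate-cysteine ligase, read 166, 71.9 and 148, a difference of 1.04, and Gclc, the catalytic subunit, differed by 0.58. Gpx2, a glutathione peroxidase of epithelia, read 323, 891 and 310, a difference of -1.52, with -1.39 on a further probe. Cholesterol synthesis genes had a median of 0.15, and among heat shock and chaperone genes Hspa1b alone was past 2-fold, at -1.0026.

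Genes above background on 1 dose only numbered 329 for the low dose and 693 for the high dose. Of these, 54 and 63 differed by at least 2-fold as a bound, against 5 and 1 under normexp. Their signals differed in strength: the median intensity on the detecting array was 36.9 for the 54 and 31.8 for the 63, and 10 and 4 of them were above 64. Of the bounds, 7 of at least 5-fold belonged to the low dose and 1 to the high dose. Cthrc1, a secreted matrix protein of repair, was at least 5.74-fold higher at the low dose and Trpv6, an epithelial calcium channel, at least 5.15-fold. Nrg2, a ligand of ErbB receptors, was the 1 at the high dose, with 13.8 on water and 4.80 at the low dose, neither above background, and 278 at the high dose, at least 24.2-fold higher. Its other probe was above background on no array, so that value rests on 1 spot. Under normexp the difference of Nrg2 was 2.51. Vom2r16 (a pheromone receptor gene, at least 4.03-fold), Akr1c12 (3.79-fold) and Rec114 (3.00-fold) followed at weak signals. Of the matrix, injury and immune lists, 12 genes were among the 54 and none among the 63. The 54 and the 63 come from all 18012 named genes on the array. Those lists were chosen with earlier results of these data known, so these counts are description only.

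Set beside the water array, the lower genes mostly showed the low dose as the array apart. Of the 153, the water level was nearer to the high dose for 143 and nearer to the low dose for 10. It lay within 2-fold of the high dose and not of the low dose for 92, within 2-fold of the low dose and not of the high dose for 5, within 2-fold of both for 30 and of neither for 26. Across them the high dose minus water had a median of 0.16 and the low dose minus water one of 1.52. The 5 within 2-fold of the low dose only are Bcl6, Ccn2, Eif1a, Map3k6 and Tdg. For the 47 higher genes the water level was nearer to the high dose in 26 and to the low dose in 21, with medians of 0.59 for the high dose minus water and -0.64 for the low dose minus water. Both columns share the water array and rest on 1 pool each. On the water array 29 of the 153 lower genes and 2 of the 47 higher genes were not above background. Picking the lower genes by a high signal at the low dose by itself favours a water level nearer to the high dose. The same counts over all measured genes were not made. The 3 arrays share 1 slide, where position and dose cannot be told apart.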

How the data were processed

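Cy3-labelled cRNA of 1 kidney RNA pool per group was hybridised to an Agilent rat 4x44K array and scanned at 532 nm. The deposited spot intensity values are GenePix Pro 6.1.0.4 exports with a constant background of 39 or 40 already subtracted, per the file headers. Agilent Feature Extraction is named in the submitters' processing notes. The signal-to-noise score of each spot and the percent of saturated pixels are also deposited, per the file headers. The authors' deposited log2 table, with a scaling between arrays that no header or label states, served as an alternative.

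Spots whose mean and median differed over 1.5-fold, and spots flagged as not found with a net signal above 100, were left out. Net mean intensities were scaled to an equal 75th percentile, floored at 1 and put on the log2 scale. A probe was above background where its signal-to-noise reached 3 on at least 50% of its spots. Genes were named through RefSeq GRCr8 accessions and symbols, with the array's own symbol otherwise. A gene was read by 1 probe, the one above background on most dose arrays and then the brightest. A gene was called at 2-fold, with no test, because each dose is 1 array; the number of arrays limits the precision.

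Named genes are the 20 lowest and 15 highest among those past 2-fold in the main setting whose sign was unchanged under normexp and quantile normalization, the 4 largest bounds per direction, the 3 genes on each side of the 2-fold line, renin-angiotensin genes, and members of 50 gene lists past 2-fold or defining a list. Other named genes were chosen after their values were seen. Some genes that the rule names are not reported here. The members and lists were chosen with earlier results of these data known. The calculation was tested on simulated data. Alternatives covered background, scaling, filters, floor, probe choice and fold limit. Promoters are RefSeq GRCr8 windows. The header of the high dose file lists a further high dose array, not analysed here, and names a mouse design, although its spots carry the same probes as the other files. Python 3.11.15, numpy 2.4.6, pandas 2.3.3, scipy 1.17.1 and matplotlib 3.10.9 were used.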

Additional observations from a re-analysis of the deposited data

How the results depend on the processing

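The counts of genes past 2-fold, 153 lower and 47 higher, came to 70 and 19 with normexp background, where 50 is added to every signal. The effect of that constant was not separated from that of the background model. The counts were 93 and 24 with a signal-to-noise minimum of 10. With no signal-to-noise filter they came to 713 and 1623, where the added genes are not above background on both doses. With spots flagged as not found left out and the scaling redone, 95 genes were higher, against 53 with those spots left out at the unchanged scaling, so that rise came with the scaling. Both of these settings also kept the non-uniform spots that the main setting drops. At a fold limit of 1.5 the counts were 564 and 413, and at 3 they were 36 and 4. Genes above background on 1 dose with a bound of at least 2-fold, 54 at the low dose and 63 at the high dose, came to 5 and 1 with normexp, 34 and 10 with the stricter minimum, and 35 and 31 with a floor of 16. For the low dose they were 98 with non-uniform spots kept and 86 with flagged spots left out at the unchanged scaling, an alternative chosen after seeing the data. For the high dose they were 33 with quantile normalization, 128 with net medians and 104 with flagged spots left out. The causes of the other shifts were not tested. All 153 lower and 47 higher genes kept their direction under each alternative that measured them. The signal-to-noise settings leave the values unchanged, so they could not reverse any. Every alternative reads the same arrays, so the kept direction is no replication. Of 16 list medians of at least 0.25 in size, 1 reversed: the T, NK and B cell list, -0.31, was 0.0145 at the stricter minimum. No paired analysis was possible because each dose is 1 array, and leaving out a replicate was not possible for the same reason. Weak signals limit precision.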
